A study of Mus musculus with 6 samples.

Results

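Isolated highly methylated tiles are 1 kb windows of the genome that lie away from windows with many covered CpG positions. They were almost fully methylated in germinal centre B cells of Tet2 wild-type mice. CpGs without enough reads were not counted, so the sequence in or beside a tile can still be rich in CpGs. They were chosen from these data. Windows had to lie on an autosome, hold 3 to 19 CpG positions (each strand counted) with at least 10 reads in all 6 libraries, have no window of 40 or more positions within 10 windows on either side, and have a mean level above 80% over the 3 wild-type libraries. The level of a window is its methylated reads over all its reads. The choice gave 52028 tiles out of 81452 isolated tiles of 3 to 19 positions (63.9%) and out of 113541 tiles with at least 3 positions in all. Of the other isolated tiles, 20151 had a wild-type mean of 20% to 80% and 9273 a mean under 20%. Because the wild-type levels made the choice, those levels are given below as a description only.

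DNA came from spleen germinal centre B cells of C57BL/6 mice, a dividing population in which antibody genes are mutated and selected. Of the 6 libraries, 3 were labelled TET2 Wild-Type (WT) and 3 TET2 Knock-Out (KO). No treatment was applied per the labels. The age and sex of the mice, the immunisation, the knockout allele and any Cre driver are not in the labels, so whether Tet2 was missing only from B cells or from the whole animal is not known. Methylation was read by enhanced reduced representation bisulfite sequencing, which cuts DNA with MspI at CCGG and reads 5-methylcytosine and 5-hydroxymethylcytosine alike. Nothing in the labels says that replicates came from separate animals, so each p-value covers only library-to-library spread, possibly technical.

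In mammalian genomes most CpGs outside CpG-dense promoters are methylated, a state that DNMT1 copies to the new strand at each cell division. Bodies of transcribed genes receive further methylation from DNMT3 enzymes, and many germline genes are kept silent in other tissues by methylation of their promoters. TET2 oxidises 5-methylcytosine, which can lead to its loss, and is known for acting at enhancers of blood cells.

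The libraries held 174375503 to 203863392 reads over CpGs, at a mean of 101 to 125 reads per listed position. Only a few starts of marker genes were covered well enough to read, and none was of a T-cell or myeloid marker. The label of the cells was therefore not tested against other cell types. Around the starts of Bcl6, the master repressor of the germinal centre programme, and S1pr2, the receptor that confines cells to germinal centres, the level was 0% to 7.81% in every library. The starts of Cd79a, Cd79b, Ms4a1 and Fas, and of the T-cell and myeloid markers Cd3e, Cd3d, Cd3g, Cd4, Cd8a, Csf1r, Lyz2 and Mpo, had fewer than 3 covered positions, so they could not be checked.

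The clearest sequences among these tiles are promoters. A promoter window is taken here as 250 bases before to 50 bases after a gene start in the RefSeq table for GRCm38.p6. Covered positions of the tiles fell in 485 such windows of 462 genes, 315 of them with at least 3 positions. Each of the 1836 covered positions in these windows was the C of a CpG on its read strand in the RefSeq sequence. The windows below are 3 germline genes, a hormone gene and an imprinted gene, shown because they held many covered positions and were methylated in every library. Each is written 5′ to 3′ along the gene, and capitals mark the CpGs that were covered. Sycp1 lies at chr3:102936051-102936350 (minus strand), Tex101 at chr7:24672001-24672300 (minus), Asz1 at chr6:18109012-18109311 (minus), Lep at chr6:29059971-29060270 (plus) and Mcts2 at chr2:152686898-152687197 (plus).
Sycp1: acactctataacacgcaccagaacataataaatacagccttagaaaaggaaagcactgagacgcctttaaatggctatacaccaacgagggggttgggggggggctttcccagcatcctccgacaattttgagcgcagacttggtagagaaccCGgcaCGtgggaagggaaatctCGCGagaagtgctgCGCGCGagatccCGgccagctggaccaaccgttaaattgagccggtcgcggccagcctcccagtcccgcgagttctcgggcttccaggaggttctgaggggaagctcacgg
Tex101: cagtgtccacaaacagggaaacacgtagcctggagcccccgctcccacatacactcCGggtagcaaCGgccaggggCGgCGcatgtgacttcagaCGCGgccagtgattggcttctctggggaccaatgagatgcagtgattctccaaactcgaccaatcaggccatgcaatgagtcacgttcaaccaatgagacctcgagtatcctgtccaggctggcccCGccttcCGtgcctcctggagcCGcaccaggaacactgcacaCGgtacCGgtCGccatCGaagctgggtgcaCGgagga
Asz1: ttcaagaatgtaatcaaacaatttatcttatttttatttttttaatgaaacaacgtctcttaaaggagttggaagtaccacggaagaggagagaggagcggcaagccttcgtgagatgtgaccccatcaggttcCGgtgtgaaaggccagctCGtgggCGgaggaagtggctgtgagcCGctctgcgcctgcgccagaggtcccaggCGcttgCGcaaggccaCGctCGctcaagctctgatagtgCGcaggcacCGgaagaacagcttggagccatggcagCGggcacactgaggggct
Lep: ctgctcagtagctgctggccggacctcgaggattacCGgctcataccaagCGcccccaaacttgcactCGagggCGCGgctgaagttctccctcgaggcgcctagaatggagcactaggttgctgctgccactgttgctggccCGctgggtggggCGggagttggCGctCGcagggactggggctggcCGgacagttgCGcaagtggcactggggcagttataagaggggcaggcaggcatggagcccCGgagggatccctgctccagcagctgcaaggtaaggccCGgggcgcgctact
Mcts2: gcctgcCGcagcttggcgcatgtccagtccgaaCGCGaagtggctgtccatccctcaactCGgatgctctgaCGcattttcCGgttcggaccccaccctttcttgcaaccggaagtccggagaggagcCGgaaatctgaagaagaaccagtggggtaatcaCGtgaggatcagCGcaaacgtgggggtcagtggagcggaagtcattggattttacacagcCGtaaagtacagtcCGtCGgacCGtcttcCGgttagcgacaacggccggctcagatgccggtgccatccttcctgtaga

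Sycp1 encodes a protein of the synaptonemal complex, which joins chromosomes in meiosis. Its window held 16 covered positions and was methylated at 85.1%, 80.5% and 81.9% in WT replicates 1 to 3 and at 84.4%, 84.6% and 83.1% in the KO replicates, so the groups overlapped. Tex101, a germ-cell surface protein gene, had 15 covered positions at 88.8%, 89.8% and 94.1% in WT and 95.9%, 94.5% and 93.1% in KO, again with overlap. Asz1, chosen after its values were seen, is a gene of the piRNA pathway that silences transposons in germ cells, and was at 93.4%, 95.1% and 95.4% in WT and 93.5%, 93.7% and 93.1% in KO. These 3 promoters were high in all 6 libraries, with KO minus WT differences of 1.56, 3.62 and -1.18 percentage points. The promoter of Rpl10l, also chosen after its values were seen, a ribosomal protein gene of the testis, had 5 covered positions, with a WT mean of 95.1% ± 4.36 and a KO mean of 95.1% ± 0.870 (SD, n = 3 each).

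Lep encodes leptin, the hormone of fat tissue. Its window, with 5 CCGG sites and 16 covered positions, was at 85.8%, 85.8% and 82.2% in WT and 84.1%, 86.2% and 87.4% in KO. Mcts2 is an imprinted retrogene that lies within the gene H13. Its window was at 92.7%, 91.2% and 92.4% in WT and 94.7%, 96.3% and 93.0% in KO, over 1568 to 2427 reads per library. All 3 KO libraries lay above the WT libraries there, by 2.56 points on average. Reads were not split by parental allele, and levels this high show no sign of an unmethylated allele. The remaining windows with the most covered positions belonged to Fer, a tyrosine kinase gene, with 80.7% ± 2.06 for WT and 84.3% ± 1.05 for KO, and to the unnamed gene Gm12404, at 82.4% ± 4.05 and 82.1% ± 2.72 (SD, n = 3 each).

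Over the 315 promoter windows with at least 3 covered positions the median was 90.4% in WT and 91.1% in KO, and 14 windows had a WT mean under 80% although their tile was above it. Their KO minus WT differences ran from -24.4 to 15.6 points. All KO libraries lay above all WT libraries in 27 windows (8.57%) and below them in 15 (4.76%), near the 8.11% and 4.53% of the tested highly methylated tiles and beside 12.7% and 3.52% of all tested tiles. Of these windows 194 belonged to genes with a Gm, Rik or LOC symbol, which mark predicted or uncharacterised genes. Each of the 315 held the MspI site CCGG, against 52.8% of all 32851 windows in the table. The palindrome CACGTG was found in 24 (7.62%), against 7.15% of all windows. The letters TCCCGC, searched on both strands, were in 35 (11.1%), against 19.98% of all. None of the 3 motifs contains another. The method reads DNA cut at CCGG, so that share was set by coverage. The 32851 windows include those without covered positions and CpG-dense ones that the rule leaves out. Nothing is therefore read from the 3 contrasts.

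As a class, the tiles were thinly covered but deeply read. They had a median of 4 positions, and 15649 (30.1%) had 3 while 4536 (8.72%) had 10 to 19. A median tile held 426 reads per library, summed over its positions. Together they held 275323 positions, 18.8% of all covered positions. The median distance to a tile of 40 or more covered positions was 95 tiles. Between 59.2% (chromosome 11) and 67.4% (chromosome 16) of isolated tiles on each autosome met the rule. Of the tiles, 29391 (56.5%) overlapped a protein-coding gene, against 51.3% of isolated tiles of 20% to 80% and 68.4% of those under 20%. Only 983 (1.89%) overlapped a promoter window, against 4.12% and 30.4%. Where the adjacent 1 kb tile was also covered, it was above 80% in 73.3% of 12471 cases, against 44.4% beside tiles of 20% to 80%. In 701 cases the adjacent tile was under 20%.

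Wild-type means had a median of 90.8%, with 5th and 95th percentiles of 81.9% and 96.6%. KO means had a median of 91.6%, with percentiles of 81.6% and 96.6%, and 97.0% of tiles stayed above 80% in KO. The KO mean was 80% or less in 1563 tiles and 70% or less in 37. The tiles just inside the threshold were one 23276 bp from Gm10710, at 76.7%, 79.1% and 84.2% in WT, and one in Zbtb48, a telomere-binding zinc finger gene, at 73.3%, 94.4% and 72.3%. Those just outside were one in Snph, at 81.0%, 80.5% and 78.5%, and one 10313 bp from Tbck, at 74.3%, 80.4% and 85.3%. Single libraries therefore fell on both sides of 80% on each side of the threshold.

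The first comparison asked whether methylation differed without Tet2. Over the 52028 tiles, library means were 89.5%, 90.5% and 90.6% in WT replicates 1 to 3 and 90.6%, 91.1% and 90.4% in the KO replicates. The groups overlapped, at 90.2% ± 0.643 and 90.7% ± 0.361 (SD, n = 3 each), a difference of 0.492 points, or 0.121 without WT replicate 1. The choice on WT levels raises WT relative to KO, so no test is given. When isolated tiles were chosen on the mean of all 6 libraries, which treats both groups alike, 53376 tiles were above 80% and 96.2% of them were the same tiles. Their library means were 89.1%, 90.2% and 90.3% in WT and 90.6%, 91.1% and 90.4% in KO. The gap from the highest WT to the lowest KO library was smaller than the spread of the WT libraries. The difference was 0.852 points (exact two-sided permutation p = 0.1, the smallest that 3 libraries against 3 allow; adjusted p = 0.129 over 9 comparisons), and 0.461 without WT replicate 1. When tiles were chosen on a pair of WT libraries, KO lay 1.61, 0.559 and 0.353 points above WT replicate 1, 2 and 3, each left out of the choice. In bulk DNA, a change in all cells and a change in the mix of cells cannot be told apart.

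The difference was larger in less methylated isolated tiles. With classes cut on the mean of 6 libraries, the 19108 tiles of 20% to 80% were at 57.2%, 59.5% and 60.3% in WT and 62.6%, 62.9% and 62.1% in KO, a difference of 3.57 points. The gap between those tiles and the highly methylated ones was -31.8, -30.7 and -30.1 points in WT and -27.9, -28.2 and -28.3 in KO. The groups did not overlap, and the gap narrowed by 2.72 points in KO (exact permutation p = 0.1, adjusted p = 0.129). Tiles under 20% differed by 0.999 points. A tile above 80% has at most 20 points left to gain, but why the classes differed was not tested. Within the highly methylated tiles the difference went from 1.61 points at 80% to 85% to 1.19 at 85% to 90%, 0.673 at 90% to 95% and -0.110 above 95% (exact permutation p = 0.1, 0.1, 0.1 and 0.9). WT replicate 1 was the lowest WT library in each range, and without it the differences were 1.10, 0.784, 0.302 and -0.410 points.

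**Figure D1:**
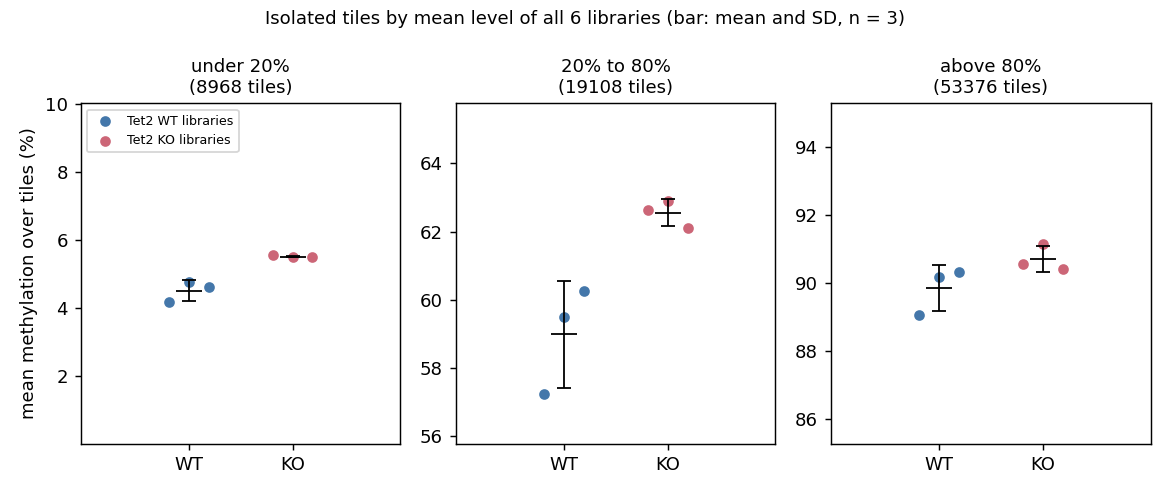
Mean methylation of isolated tiles in each library, in classes cut on the mean of all 6 libraries; points are libraries, bars the mean and SD, and each panel spans 10 points. In the 53376 tiles above 80% the KO libraries sit at 90.4% to 91.1% and the WT libraries at 89.1% to 90.3%, and the gap is larger at 20% to 80%.

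Position in genes was not used by the rule, although the levels were, and the difference between groups was larger there. The 29391 tiles in protein-coding genes had means of 89.7%, 90.98% and 91.1% in WT and 91.3%, 91.8% and 91.2% in KO, a difference of 0.822 points, or 0.373 without WT replicate 1. The 22637 tiles outside genes were at 89.2%, 89.97% and 89.999% in WT and 89.7%, 90.2% and 89.4% in KO, a difference of 0.0644 points with overlapping groups, or -0.205 without WT replicate 1. Tiles in genes exceeded those outside by 0.511, 1.01 and 1.08 points in WT and by 1.62, 1.53 and 1.73 points in KO. Each KO value was above each WT value, and the excess was 0.757 points larger in KO, which is given with no test because these tiles were chosen on the WT levels. With tiles chosen on all 6 libraries the excess was 0.359, 0.954 and 1.03 points in WT and 1.49, 1.38 and 1.60 in KO. The difference was then 0.708 points (exact permutation p = 0.1, adjusted p = 0.129 over 9 comparisons), and 0.498 without WT replicate 1. In genes the difference was 0.801 points within 2 kb of a gene start, 1.26 at 2 to 10 kb, 1.03 at 10 to 50 kb and 0.433 beyond 50 kb. Outside genes it was 0.655, 0.507, 0.410 and -0.144 points at these distances. WT replicate 1 was the lowest WT library in each of these groups of tiles. Without it the differences were 0.266, 0.716, 0.539 and 0.0796 points in genes and 0.299, 0.0301, 0.0617 and -0.348 outside genes. Both series were lowest beyond 50 kb with and without that library, where 10742 tiles in genes and 13665 outside genes lay.

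**Figure D2:**
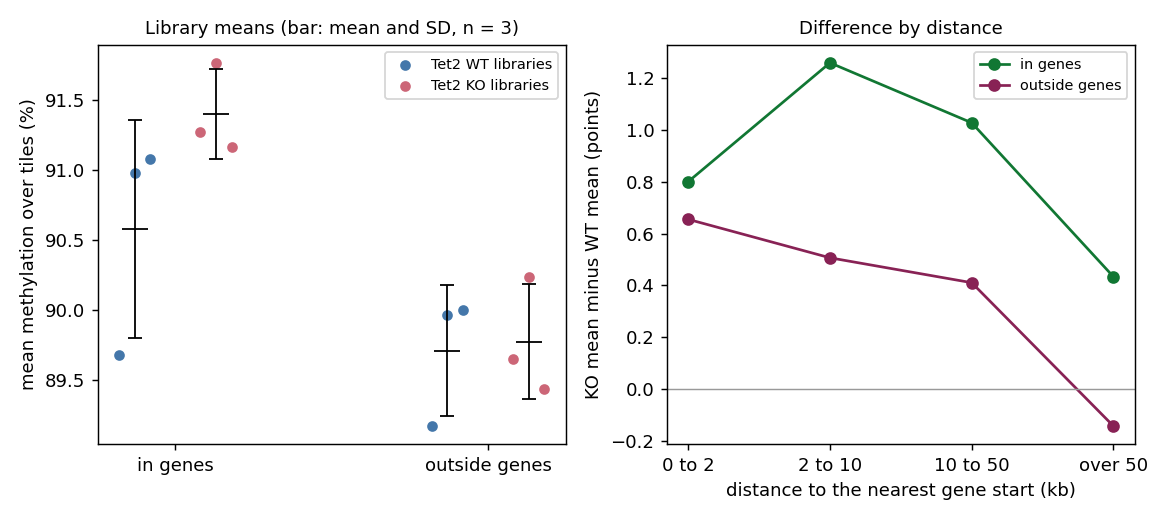
Left, mean methylation of isolated highly methylated tiles in and outside protein-coding genes, by library, with the mean and SD (n = 3). Right, the KO minus WT difference by distance to the nearest gene start; tiles in genes lie at 0.433 to 1.26 points and tiles outside genes at -0.144 to 0.655 points.

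The second comparison asked which single tiles differed. A quasi-binomial model with a moderated dispersion was fitted to all 83114 tiles with a mean of 5% to 95%, and a tile was called when its Benjamini-Hochberg adjusted p was under 0.05 and its group means differed by 10 points or more. Of the 52028 tiles 45339 were tested, and the other 6689 were over 95%. Among those tested 8 were called higher (0.0176%) and 1 lower in KO, where 0.685% of all tested tiles were called higher, 0.00241% lower and 0.687% either way. Since the rule caps the rise that a tile can show, nothing is read from that contrast. Without the 10-point minimum 12 were higher and 1 lower, against 0.732% and 0.00241% of all tested tiles. All KO libraries lay above all WT libraries in 3675 of the tested members (8.11%), against 12.7% of all tested tiles, and below them in 2056 (4.53%), against 3.52%.

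**Figure D3:**
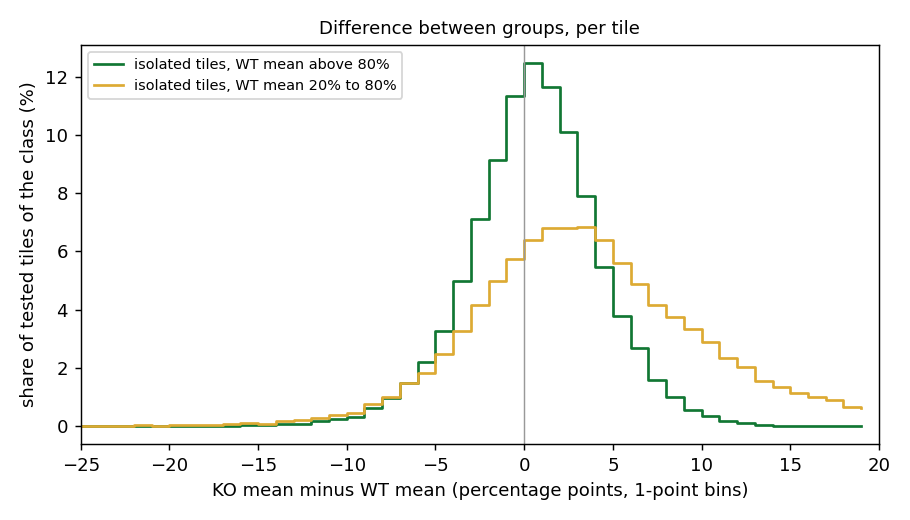
Distribution of the KO minus WT difference per tile among tested isolated tiles, in bins of 1 percentage point, for tiles with a WT mean above 80% and tiles of 20% to 80%. The medians are 0.637 and 3.34 points; the classes were chosen on WT levels, which shifts both curves.

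Most called rises lay inside protein-coding genes, as did 56.5% of all the highly methylated tiles, so nothing is read from that. The largest was in Rph3al, which encodes an effector of Rab proteins in secretion, at 84.2%, 80.1% and 77.6% in WT and 95.7%, 93.6% and 93.1% in KO (chromosome 11, 75955001 to 75956000; adjusted p = 0.0235, moderated quasi-binomial test). A tile in Rftn1, a lipid-raft protein gene that takes part in B-cell receptor signalling, was at 83.8%, 81.6% and 82.96% in WT and 96.6%, 93.8% and 92.6% in KO (chromosome 17, 50055001 to 50056000; adjusted p = 0.0479). Of its 6 positions, the position on the reverse strand at 50055546 differed most, by 24.8 points, and the position at 50055439 least, by 0.776 points. In both tiles each KO library was above each WT library.

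A tile in Zfp777, a zinc finger gene, had 18 positions and 898 to 1440 reads per library. It stood at 75.6%, 88.3% and 88.1% in WT and 96.1%, 94.9% and 95.2% in KO (adjusted p = 0.0407), so WT replicate 1 was low and without it the difference was 7.22 points. The rise was not even over this tile. Forward-strand positions from 48024606 to 48024648 differed by 16.8 to 47.3 points, and the tile's other positions by -8.41 to 6.90. In Galnt10, an enzyme gene that starts mucin-type O-glycans, a tile was at 83.7%, 86.1% and 87.3% in WT and 94.6%, 100% and 96.4% in KO (adjusted p = 0.0339). In Camk1d, a calcium-dependent kinase gene, the values were 79.4%, 83.2% and 84.1% against 94.5%, 95.5% and 91.7% (adjusted p = 0.0383). In Prdm10, a zinc finger transcription factor gene, they were 80.9%, 82.7% and 84.0% against 92.2%, 93.1% and 95.1% (adjusted p = 0.0288). The remaining called rises lay 395 bp from Tff1, a stomach trefoil peptide gene, and 5809 bp from Plekho1, a pleckstrin-homology protein gene, with rises of 11.8 and 10.2 points (adjusted p = 0.0484 and 0.0373, moderated quasi-binomial test). In the tile near Tff1 the position at 31160699 differed by 31.3 points and the other positions by 2.84 to 5.15. The 8 rises ran from 10.2 to 13.5 points, from WT means of 80.6% to 85.7%. The rule and the 10-point minimum limit where a called rise can start, so nothing is read from that range.

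The called fall lay in Unc79, which encodes a subunit of the NALCN sodium leak channel complex of neurons. Its tile on chromosome 12 (103016001 to 103017000) was at 99.8%, 99.7% and 98.2% in WT and 87.9%, 85.6% and 91.5% in KO (adjusted p = 0.0397, moderated quasi-binomial test). It had 4 positions and 229 to 616 reads per library. Both strands of the CpG at 103016597 and 103016598 were lower, by 9.05 and 22.6 points, and the positions at 103016569 and 103016628 by 10.7 and 1.87. Other tiles of Unc79 did not share the direction throughout: 5 of its 12 isolated highly methylated tiles had a KO mean above the WT mean.

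**Figure D4:**
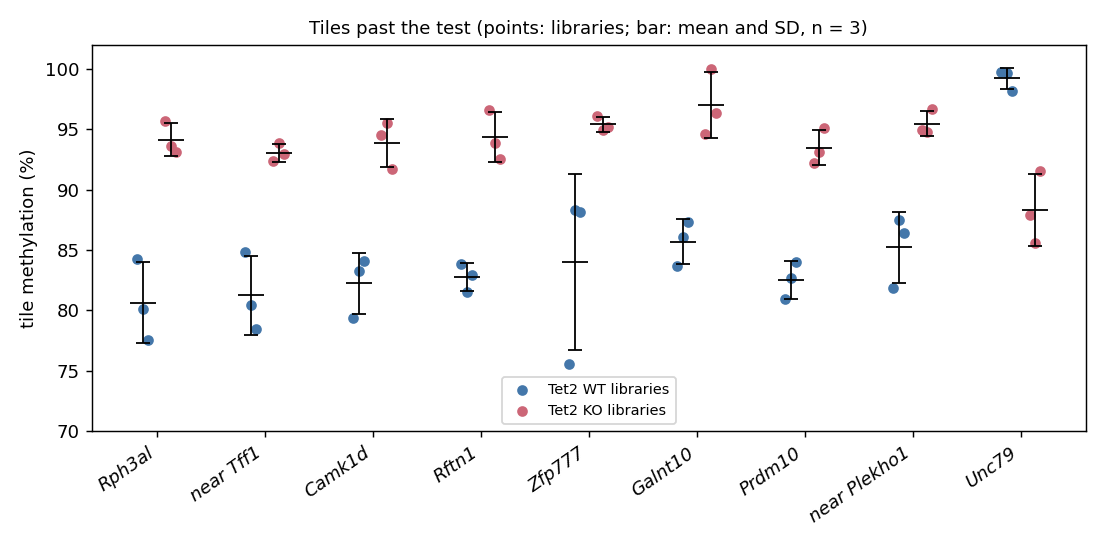
Methylation in each library of the 9 isolated highly methylated tiles past the test, ordered by the KO minus WT difference, with the mean and SD (n = 3). KO libraries lie above all WT libraries in 8 tiles and below them in Unc79; the axis starts at 70%.

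These calls were not stable to the choice of libraries. Leaving out WT replicate 1, 2 or 3 kept 1, 5 or 6 of the 8 rises, and leaving out any KO replicate kept 0. The fall was still called without WT replicate 3 alone. Without KO replicate 1 or 2 its tile was not among those tested, at differences of -10.5 and -9.49 points. The highest adjusted p among the refits that tested these tiles was 0.215, and limma on log2 ratios called 0 tiles. A further 4 tiles had an adjusted p under 0.05 with a difference under 10 points, all upward. Of these, 3 lay in Lrrfip1, Tedc1 and Foxp4, the last a forkhead transcription factor gene, with differences of 6.51, 8.33 and 6.02 points. These 3 were well-read tiles, with 10 to 18 positions and 1215 to 3634 reads per library.

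The widest differences were found in tiles of 3 to 6 positions, and they did not pass. Among tiles whose groups did not overlap, the lowest in KO was in Itgbl1, an integrin-like protein gene, at 92.8%, 91.7% and 83.1% in WT and 42.9%, 41.0% and 83.0% in KO (adjusted p = 0.167, moderated quasi-binomial test). It rested on 69 to 139 reads per library, and KO replicate 3 stood beside WT replicate 3, far from the other KO libraries. A tile in Tspan9, a tetraspanin gene, was at 93.7%, 98.9% and 84.8% in WT and 72.0%, 64.1% and 68.8% in KO. One in Marco, a macrophage scavenger receptor gene, was at 84.3%, 90.6% and 86.8% against 77.5%, 64.4% and 60.3%. Differences of -24.4, -22.7 and -21.2 points were measured in tiles 3073 bp from Arhgef37, 5261 bp from Vmn2r85 and 4676 bp from Caln1. In the other direction, tiles in Mettl7a1, 4930519G04Rik, Prr14l, Smarcal1 and Plekha1 differed by 16.1, 15.2, 14.7, 14.4 and 14.3 points. None of these tiles passed (lowest adjusted p = 0.0611).

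Differences of 10 points or more were as common downward as upward, with 311 and 321 tiles. At 15 points or more there were 41 and 3. The upward side is limited by the starting level, and the choice on WT levels favours falls in KO. The cause of this imbalance was not tested. Tiles that differed downward by 10 or more had a median of 198 reads per library, against 426 over all tiles, and 180 of the 311 had only 3 positions. The share of tiles 10 or more points apart was 2.17% at 3 positions, 1.19% at 4 to 5, 0.420% at 6 to 9 and 0.198% at 10 to 19. The spread between replicates narrowed in the same order, from a median SD of 4.196 to 2.32 points in WT and from 2.92 to 1.58 in KO. WT libraries thus varied more than KO libraries at each size.

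Single low positions inside these tiles were rare. Positions under 50% made up 1.14%, 1.41% and 0.986% in WT and 0.728%, 0.985% and 0.689% in KO. KO replicate 2 was just below WT replicate 3, and the other KO libraries were lower. In tiles chosen on all 6 libraries the shares were 1.38% ± 0.243 and 0.800% ± 0.1505 (SD, n = 3 each; exact permutation p = 0.1, adjusted p = 0.129). Only 368 positions (0.134%) were under 20% in every library. Among 30473 CpGs read on both strands, 149 were under 20% on one strand and over 80% on the other in all 6 libraries, and 2 were under 20% on both. The share of tiles at 95% or more was 17.4%, 25.7% and 23.2% in WT and 20.5%, 26.8% and 19.5% in KO. In tiles chosen on all 6 libraries this share did not separate the groups, with a difference of 0.248 points (exact permutation p = 1).

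The strands of a CpG carry methylation copied at replication, and their difference did not enter the rule, although the reads behind it did. The mean absolute difference between strands was 9.74, 11.1 and 9.88 points in WT and 7.19, 9.66 and 7.65 in KO. Each KO library was below each WT library, by 2.09 points on average. In tiles chosen on all 6 libraries, where both groups are treated alike, 31347 CpGs gave 10.04, 11.5 and 10.2 points in WT and 7.41, 9.84 and 7.85 in KO, a difference of -2.20 points (exact permutation p = 0.1, adjusted p = 0.129). With the counting variance of the reads removed, the root mean square difference in those tiles was 15.2, 17.9 and 15.7 points in WT and 12.5, 16.2 and 12.7 in KO, where KO replicate 2 lay above WT replicates 1 and 3 (exact permutation p = 0.3). Mean coverage over all positions of the tiles was 99.05, 90.1 and 97.1 reads in WT and 104, 95.6 and 101 in KO, and both WT replicate 2 and KO replicate 2 had the lowest coverage and the largest strand difference of their group.

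Genes were compared by lists chosen with earlier results of these data known, and counts are given as a description. B-cell identity and receptor genes held 44 of the tiles out of 96 isolated tiles (45.8%), the lowest share of the 11 lists. None of the 39 tested was called, yet the KO mean was above the WT mean in 40 of 44, with a median difference of 3.57 points, against 56.8% of all 52028 tiles and a median of 0.508. Their library means were 86.96%, 89.4% and 91.8% in WT and 92.6%, 92.9% and 93.3% in KO. WT replicate 1 was lowest, and WT replicate 3 was closest to the KO libraries. All KO libraries lay above all WT libraries in 9 of the 44 and below them in 0. Among all 52028 tiles these shares were 7.52% and 4.76%, and among all tested tiles 12.7% and 3.52%. The list holds tiles in genes only. Over all highly methylated tiles in protein-coding genes the mean difference was 0.822 points, against 3.54 in this list.

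Within that list Pax5, the commitment factor of B cells, held 13 tiles, at 85.8% in WT and 90.6% in KO on average, and KO was above WT in 11. All 6 tiles of Ebf1, an early B-cell transcription factor gene, had the higher mean in KO, at 90.02% and 94.0%, as did all 7 tiles of Bach2, a repressor that delays plasma-cell fate, at 91.4% and 94.3%. A tile in Bach2 with 16 positions stood at 92.4%, 94.4% and 93.2% in WT and 96.3%, 96.1% and 96.1% in KO (adjusted p = 0.163, moderated quasi-binomial test). A tile in Cd22, an inhibitory co-receptor gene, with 13 positions was at 85.97%, 87.9% and 85.8% against 92.4%, 93.7% and 90.8% (adjusted p = 0.295). The Ebf1 tile with the most positions, 13, was at 83.0%, 86.5% and 90.5% against 91.2%, 92.1% and 90.8%. The groups did not overlap in any of these 3 tiles, but none passed.

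Genes of the methylation machinery held 36 of the tiles, and the KO mean was higher in 29, with a median of 2.03 points and 0 called. Dnmt1, the maintenance methyltransferase gene, had the higher mean in KO at all 6 of its tiles, from 91.8% to 96.2% on average. Tet3 held 9 tiles, among them 3 with 17 or 18 positions, whose differences were 2.01, 0.636 and 2.67 points. Tet2 itself held 2, at 89.4% in WT and 93.9% in KO. Germinal centre genes held 24 tiles, with KO higher in 18 and a median of 1.40 points. Those with the most positions were in Gna13, a G-protein gene that confines germinal centre B cells, Irf8 and Bcl6, with differences of 0.412, 4.64 and 3.59 points. Plasma-cell genes held 21, with KO higher in 12 and a median of 0.557. The Prdm1 tile with 15 positions, in the gene of the plasma-cell regulator Blimp-1, was at 93.3%, 96.6% and 97.99% in WT and 96.2%, 96.6% and 96.7% in KO. A second Prdm1 tile, with 7 positions, was lower in each KO library, by 2.12 points on average, without passing, and a Zbtb20 tile differed by -0.266 points. None of the tiles of these 3 lists was called.

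Broadly transcribed genes held 87 tiles, with KO higher in 68 and a median of 1.20 points. Their library means were 90.8%, 92.8% and 93.1% in WT and 93.8%, 93.8% and 93.8% in KO. Named tiles in Kmt2d, a histone methyltransferase gene, and Trrap, a co-activator gene, were above 80% in all 6 libraries, with differences of 0.767, 0.513 and 0.0581 points. Germline genes held 30 tiles out of 34 isolated ones (88.2%), the highest share of the lists, with KO higher in 20 and a median of 0.719 points. Of the 28 tested, 0 were called and 0 had an unadjusted p under 0.05 by the moderated test. Among all tested highly methylated tiles 0.0176% were called higher and 6.61% had such a p, against 0.685% and 11.5% of all tested tiles. Such a p was found in 7 of 39 tested tiles of B-cell genes and 9 of 63 of broadly transcribed genes. In methylation machinery, germinal centre and plasma-cell genes it was found in 3 of 28, 3 of 19 and 2 of 13.

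In genes of neurons, smell receptors and red cells the median difference was below 0, and in T-cell and myeloid genes above it. Neuronal and synaptic genes held 370 tiles, with KO higher in 174 (47.0%), a median of -0.357 points and the Unc79 fall as the only call. Their library means were 88.1%, 88.8% and 89.1% in WT and 88.0%, 89.0% and 88.0% in KO. Tiles with 16 to 19 positions in Csmd2, Nrxn2 and Shank3, genes of synapses, differed by -0.554, 0.921 and 1.52 points. Olfactory and vomeronasal receptor genes held 64 tiles, with KO higher in 26 (40.6%) and a median of -0.474 points, and named tiles at Vmn2r1, Vmn2r56 and Vmn2r59 differed by -3.82, -0.170 and 0.397. Erythroid genes held 20, with KO higher in 9 and a median of -0.231, while their mean was 88.6% in WT and 89.2% in KO, a difference of 0.639 in the other direction, and 3 named tiles of Ank1, an ankyrin gene of red cells, differed by 2.61, -2.16 and 1.84. T-cell genes held 44, with KO higher in 29 and a median of 1.07 points. Their named tiles in Zap70, Bcl11b and Gata3 differed by -0.382, -2.07 and 0.971. Myeloid genes held 15, with KO higher in 12 and a median of 1.44. In Cebpe, a granulocyte transcription factor gene, a tile with 16 positions was at 78.7%, 82.5% and 87.2% in WT and 90.6%, 88.9% and 87.3% in KO, and a pair of Mpo tiles differed by 1.44 and 2.28 points. None of the tiles of these last 4 lists was called by the moderated test, and at an unadjusted p under 0.05 there were 2, 1, 3 and 2 of 57, 18, 42 and 13 tested, where 6.61% of all tested highly methylated tiles and 11.5% of all tested tiles had such a p.

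**Figure D5:**
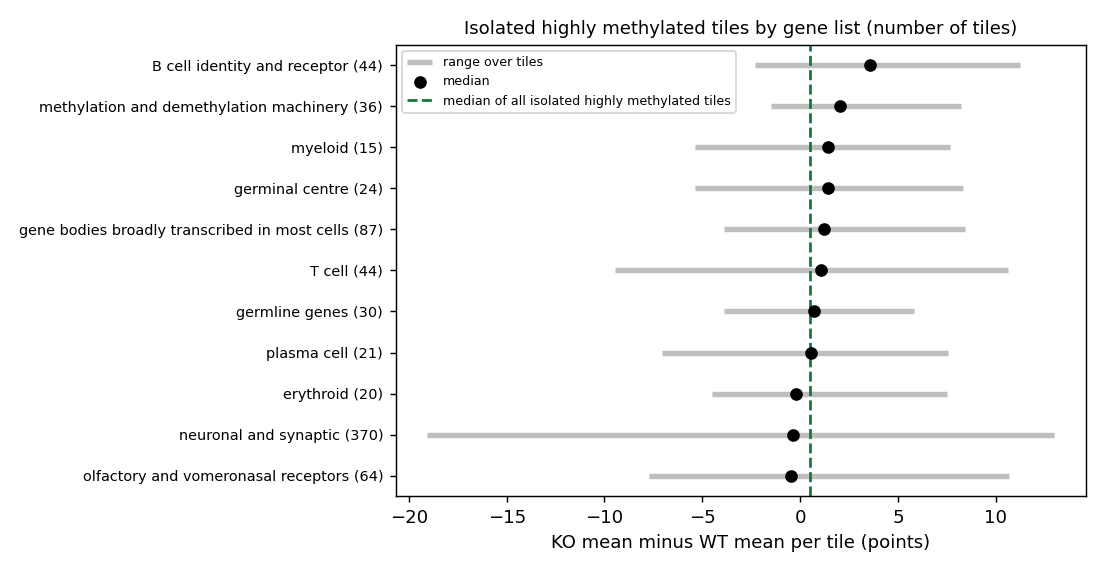
KO minus WT difference per isolated highly methylated tile in 11 gene lists; dots are medians, grey lines the range over tiles, and the dashed line the median of all 52028 tiles (0.508 points). B-cell genes have the highest median, 3.57 points, and olfactory and vomeronasal receptor genes the lowest, -0.474.

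Most genes held few of these tiles. A tile was found in 9217 of 21887 protein-coding genes, with a median of 2 per gene, and 523 genes held 10 or more. Wwox, an oxidoreductase gene at a chromosomal fragile site, held the most, 74 over 913 kb. Its tiles averaged 89.6%, 91.8% and 91.5% in WT and 92.3%, 92.9% and 92.6% in KO, and KO was higher in 50 of 74. Gse1 held 52, at 87.8%, 89.3% and 89.3% in WT and 89.9%, 90.8% and 90.9% in KO. Each KO library thus lay above each WT library in both genes. The share of all genes whose averages separate in this way is not given, so nothing is read from that. In Camta1, a calmodulin-binding transcription factor gene with 63 tiles, WT was at 88.4%, 88.7% and 89.3% and KO at 87.7%, 88.4% and 88.6%. Cdh13, the T-cadherin gene, and Zfhx3, a homeobox gene, each held 56, with differences of -0.454 and -0.0352 points and overlapping groups. No tile of these 5 genes was called, although 7, 8, 2, 2 and 4 of them had an unadjusted p under 0.05 in Wwox, Gse1, Camta1, Cdh13 and Zfhx3. These genes had 59, 50, 62, 53 and 52 tested tiles, and 6.61% of the tested highly methylated tiles and 11.5% of all tested tiles had such a p.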

How the data were processed

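DNA methylation was measured in 3 Tet2 WT and 3 Tet2 KO libraries. Reads were aligned with Bismark to GRCm38, per the submitters' processing notes; other settings are not stated there. The deposited files give coverage as a count of reads per CpG position and strand, at least 10, and, per the file headers, the percent of reads with C and with T. Methylated and unmethylated reads came out whole at 100% of positions, within a tolerance of 0.00051 percentage points. The 1463044 positions with 10 or more reads in all 6 libraries were summed in 1 kb tiles. PCR copies cannot be told apart from molecules.

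Tiles of 3 or more positions with a mean of 5% to 95% were tested with a quasi-binomial model with a Pearson dispersion (4 residual degrees of freedom) shrunk by limma's empirical Bayes method (prior degrees of freedom 9.35), written in Python 3.11.15 with numpy 2.4.6 and scipy 1.17.1 and tested on simulated data. P-values were adjusted by Benjamini-Hochberg over all 83114 tested tiles. For library means, two-sided exact permutation tests were used in 9 comparisons, which were adjusted together. They were also used, without adjustment, in each range of level within the highly methylated tiles. All were on tiles chosen on the mean of 6 libraries. The planned tests of the strand difference and the excess in genes over tiles chosen on WT levels were replaced after the data were seen, since that choice used the same reads. Genes are RefSeq protein-coding spans of GRCm38.p6, and gene starts come from the RefSeq promoter table. Members and lists were chosen with earlier results of these data known. Named were called tiles, up to 6 separated tiles in each direction, 2 on each side of the threshold, 3 per list with most positions, 5 genes with most tiles and 6 promoters with most covered positions; Asz1 and Rpl10l were added after their values were seen. A few items that this rule or the marker check covers are not reported here. All symbols of the lists matched. Alternatives covered the test, the filters, coverage, the choice of tiles, a replicate block and left-out libraries. Marker starts were read within 500 bp of the promoter window.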

Additional observations from a re-analysis of the deposited data

How the results depend on the processing

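The calls depended on the test. Limma on log2 ratios, unmoderated dispersion and testing all covered tiles each called 0 of the highly methylated tiles higher and 0 lower, beside 0, 0 and 8 of all tiles called higher, with 3465, 3022 and 3542 at an unadjusted p under 0.05. Tiles of 5 or more positions gave 6 higher and 0 lower (all tiles: 345 and 0). Leaving out 1 library gave 0 to 44 higher, with 2, 28 and 44 when WT replicate 1, 2 or 3 was dropped and 0 when any KO replicate was (all tiles: 207, 718 and 1150, and 141, 124 and 155 without KO replicate 1, 2 and 3), and 0 to 1 lower. Replicate numbers did not pair the libraries (r = 0.0228, 0.00211 and 0.00359 for numbers 1 to 3), and a replicate block gave 23 higher and 3 lower (all tiles: 894 and 6). The mean difference of 0.492 points was 1.28 with tiles chosen on KO, -0.316 above a threshold of 90%, and 1.61 against WT replicate 1 held out; the cause was not tested. The difference in positions under 50%, -0.376 points, was -0.582 and -0.934 with tiles chosen on 6 or on KO libraries, and -0.0718 above 90%. The excess in genes, the narrower gap to partly methylated tiles and the smaller strand difference kept their direction under each alternative run. With 3 libraries a group, no exact permutation test could pass 0.05.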

Other observations

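MicroRNA genes were not among the lists above. Covered positions of the tiles fell in 23 of 1005 miRNA hairpins in the RefSeq table (GRCm38.p6), and the hairpin's own level in WT was above 80% in 19 of the 23, from 68.1% to 100% over all. Those with the most covered positions, chosen after their values were seen, are shown 5′ to 3′ with covered CpGs in capitals. Mirlet7e, of the let-7 family, lies at chr17:17830352-17830444 (plus strand), Mir25 at chr5:138165321-138165404 (minus) and Mir433, of an imprinted cluster, at chr12:109591715-109591838 (plus).
Mirlet7e: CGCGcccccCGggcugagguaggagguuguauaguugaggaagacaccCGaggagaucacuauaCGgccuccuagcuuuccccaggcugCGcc
Mir25: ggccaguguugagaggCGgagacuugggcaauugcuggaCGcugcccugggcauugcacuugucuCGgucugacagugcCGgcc
Mir433: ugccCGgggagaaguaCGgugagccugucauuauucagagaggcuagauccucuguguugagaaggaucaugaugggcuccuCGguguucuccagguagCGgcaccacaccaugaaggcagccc

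The Mirlet7e hairpin, with 7 covered positions, was at 80.2%, 77.8% and 76.8% in WT and 80.3%, 75.4% and 80.4% in KO, below its tile at 83.9% and 84.4%. Mir25, of an oncogenic miRNA cluster, was at 72.6%, 82.7% and 83.7% in WT and 84.7%, 91.9% and 88.9% in KO, so each KO library lay above each WT library. Mir433 was at 90.8% ± 4.995 and 92.3% ± 2.06 (SD, n = 3 each). The hairpins of Mir6921 and Mir130a, also singled out after their values were seen, were at 76.8% ± 3.01 and 84.8% ± 4.502 in WT and 89.1% ± 2.29 and 92.5% ± 1.17 in KO (SD, n = 3 each), again without overlap. In the other direction, the overlapping hairpins Mir873a and Mir873b, which share 1 covered position, were at 100%, 100% and 94.8% in WT and 87.3%, 92.1% and 88.3% in KO. Over the 23 hairpins, all KO libraries lay above all WT libraries in 3 and below them in 2. The 2 are Mir873a and Mir873b, so they rest on the same position. Among tested highly methylated tiles these shares were 8.11% and 4.53%, and among all tested tiles 12.7% and 3.52%. Hairpins were not tested.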
